A study of Mus musculus with 4 samples.

Results

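The genes of the mitochondrial ribosomal proteins were followed in cardiac endothelial cells of adult mice, which form the inner lining of the heart and its vessels. The genes were those whose array probe carries an accession that RefSeq assigns to a symbol of Mrpl or Mrps followed by a digit. Where a gene had several probes, the brightest by its average across all 4 arrays stood for it. This gave 78 genes of the 18353 named genes with a probe on the array. By the place of the human proteins in the ribosome, 51 belong to the large subunit, 26 to the small subunit, and Mrps36 was left unplaced, since it was first described as a ribosomal protein and is now known as a component of the 2-oxoglutarate dehydrogenase complex. Each of the 4 samples was run on its own Agilent oligonucleotide array in a single dye, Cy3. The labels give 2 samples titled G2_EC_KO, a Gata2 knock out called G2-EC-KO in the design, and 2 control samples, given as wild type. They do not give the allele, the driver of the deletion, the age in numbers, or whether each sample came from a separate animal or a pool, so p-values reflect only how far these samples vary, and that variation may be technical.

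Mitochondria carry their own small genome, whose messages for core subunits of the respiratory chain are translated inside the organelle. The ribosome that does this has a large subunit, which forms peptide bonds, and a small subunit, which reads the message. Its RNAs come from mitochondrial DNA, while all of its proteins are encoded in the nucleus, made in the cytosol and imported. Many of these proteins have bacterial relatives, and others are found in mitochondria alone. Nuclear genes of this kind commonly have promoters without a TATA box, with sites for NRF1, for ETS factors such as GABP and for YY1.

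Promoter sequence is shown first, as a feature that the selection by name did not use. RefSeq promoter windows of assembly GRCm38.p6, 250 bases before to 50 after the start of a gene, matched 69 of the 78 genes, without Mrpl4, Mrpl13, Mrpl15, Mrpl19, Mrpl38, Mrpl54, Mrps28, Mrps34 and Mrps35. Each motif was searched on both strands in these 300 bases. The ETS core CCGGAAG was present in 25 of 69 windows, or 36.2%, against 16.7% of the windows of 10837 tested genes and 9.12% of all 27025 windows. The NRF1 core GCGCATGC was present in 8 windows, or 11.6%, against 5.05% of tested genes and 2.80% of all windows. The YY1 core AAGATGG was present in 13, or 18.8%, against 7.0% and 6.48%. The GATA core AGATAA was present in 11, or 15.9%, against 6.87% and 11.4%, and the GC box GGGCGG in 34, or 49.3%, against 61.8% and 35.9%. The TATA box TATAAA was found in 4 windows, or 5.80%, against 8.41% of tested genes and 14.2% of all windows. A match is a description of the letters, and none of these differences was tested.

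The 4 windows below show these motifs in genes whose expression values follow. They are printed 5′ to 3′ on the strand of the gene, with matches to the ETS, NRF1, YY1 and GATA cores in capitals. Mrps25 (chr6:92183974-92184273, minus strand) is among the genes with the largest difference by the probe used, while its second probe went the other way. Its window holds a GATA core whose first base lies 132 bases before the start. Mrps16 (chr14:20393441-20393740, minus strand) is also among the 8 largest and holds the reverse complement of the ETS core at 74 bases before and at base 25 after the start. Mrpl32 (chr13:14612988-14613287, minus strand) and Mrps27 (chr13:99344536-99344835, plus strand) are at the other end of the order. Mrpl32 holds 4 NRF1 cores, of which a forward and a reverse match overlap to form one palindrome, and a YY1 core. Mrps27 holds the reverse complement of the ETS core 48 bases before the start and a YY1 core at base 15 after it.
Mrps25: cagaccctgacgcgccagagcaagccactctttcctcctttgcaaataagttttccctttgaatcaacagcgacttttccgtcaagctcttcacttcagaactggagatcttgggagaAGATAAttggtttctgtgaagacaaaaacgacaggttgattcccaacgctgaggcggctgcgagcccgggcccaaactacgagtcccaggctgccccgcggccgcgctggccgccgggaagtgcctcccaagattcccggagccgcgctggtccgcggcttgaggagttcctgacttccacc
Mrps16: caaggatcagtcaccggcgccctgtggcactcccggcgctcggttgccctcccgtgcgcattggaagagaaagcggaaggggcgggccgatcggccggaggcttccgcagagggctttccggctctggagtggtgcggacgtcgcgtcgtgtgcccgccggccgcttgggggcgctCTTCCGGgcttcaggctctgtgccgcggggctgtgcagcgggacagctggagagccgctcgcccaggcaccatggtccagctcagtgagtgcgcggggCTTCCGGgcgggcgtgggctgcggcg
Mrpl32: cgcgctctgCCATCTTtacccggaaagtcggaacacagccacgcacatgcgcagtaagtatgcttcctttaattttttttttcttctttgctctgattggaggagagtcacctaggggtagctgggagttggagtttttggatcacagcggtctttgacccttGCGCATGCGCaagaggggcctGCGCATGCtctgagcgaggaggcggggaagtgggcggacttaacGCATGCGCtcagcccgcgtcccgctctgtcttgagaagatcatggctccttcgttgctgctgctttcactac
Mrps27: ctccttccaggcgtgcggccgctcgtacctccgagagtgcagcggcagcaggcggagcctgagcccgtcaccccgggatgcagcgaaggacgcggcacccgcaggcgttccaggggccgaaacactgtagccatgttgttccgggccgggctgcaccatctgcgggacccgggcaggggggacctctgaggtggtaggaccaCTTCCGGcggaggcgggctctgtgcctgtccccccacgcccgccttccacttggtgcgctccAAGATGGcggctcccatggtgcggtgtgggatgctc

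Array-wide values were as follows. All 78 probes used were well above background on all 4 arrays, no spot was saturated, and between 63.8% and 66.5% of all probes on an array were well above background. Values are log2 of the processed signal minus the 75th percentile of the array. Gata2, the labelled target, was not lower in G2-EC-KO: probe A_51_P516625 read 2.17 and 2.46 in G2-EC-KO, against 1.86 and 2.17 in control, so that the log2 change was 0.29 (SE 0.18; adjusted p = 0.586 by limma). The second probe gave 0.17 (SE 0.14; adjusted p = 0.653 by limma). The deleted part of the gene and the position of the probes in it are not given in the sources used here, so that the directions below rest on the labels. All 12 endothelial markers were well above background on every array, with a median log2 change of 0.02. Of the 12, 7 lay above 0 and 5 below. Both G2-EC-KO arrays lay below both controls for 4, Tie1, Pecam1, Tek and Erg, or 33.3% against 16.7% of named genes. They lay above both for 2, Emcn and Robo4, or 16.7% against 30.4% of named genes. These genes were named after their values were seen. Erg, an endothelial transcription factor, had the largest difference of the 4 lower markers, at -0.37 (SE 0.13; adjusted p = 0.508 by limma). Limma called 1 of 26882 tested probes at an adjusted p of 0.05, and 2586 had an unadjusted p under 0.05. An exact permutation test of 2 against 2 arrays cannot give a two-sided p below 0.333.

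The mitochondrial ribosomal protein genes read slightly higher in G2-EC-KO as a group, and none passed the test alone. Of the 78 genes, 73 had a log2 change above 0 and 5 below 0, where 58.1% of the 13622 tested named genes lay above 0. The median log2 change was 0.21, or 1.15-fold, with quartiles of 0.11 and 0.26, against a median of 0.04 over all tested named genes. The values ran from -0.11 to 0.51, and 14 genes exceeded 0.3, 45 lay between 0.1 and 0.3, 18 lay within 0.1 of 0 and 1 lay below -0.1. Limma called 0 of 78 at an adjusted p of 0.05, against a background of 0.00372% of all probes tested, with adjusted p-values from 0.467 to 0.990. At an unadjusted p under 0.05 the probes used of 5 of the 78 genes (Mrpl15, Mrpl19, Mrpl40, Mrpl47 and Mrps25) read higher, against 6.12% of named genes, and those of 0 lower, against 2.06%. Of these, Mrps25 has a second probe that went the other way. The share higher is near the background. Log2 changes had a median SE of 0.12, and the median half-width of its 95% confidence interval was 0.32, so that a difference of the size of the median cannot be called for a single gene with 2 arrays per group.

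The groups did not overlap for most of these genes. Both G2-EC-KO arrays lay above both control arrays for 60 of the 78, or 76.9%, against 30.4% of named genes. Both lay below for 1, Mrps7, and 17 overlapped. The arrays of a group were not alike in this. Relative to the control mean of each gene, the median was 0.12 on G2-EC-KO replicate 1 and 0.27 on G2-EC-KO replicate 2, against -0.02 and 0.02 on control replicates 1 and 2. G2-EC-KO replicate 2 read above replicate 1 for 64 of 78 genes, by a median of 0.14, while control replicate 2 read above control replicate 1 for 52, by a median of 0.04. Without G2-EC-KO replicate 2 the median log2 change of the 78 genes was 0.12, and without G2-EC-KO replicate 1 it was 0.27. Among the genes with the largest differences, leaving out G2-EC-KO replicate 2 gave 0.30 for Mrpl40, 0.23 for Mrpl14, 0.23 for Mrpl12 and 0.20 for Mrps16, against 0.51, 0.38, 0.36 and 0.33 over all arrays. Without control replicate 1, Mrpl12 had 0.22 and Mrps16 0.21. The 78 genes vary together on an array and are not independent replicates.

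**Figure D1:**
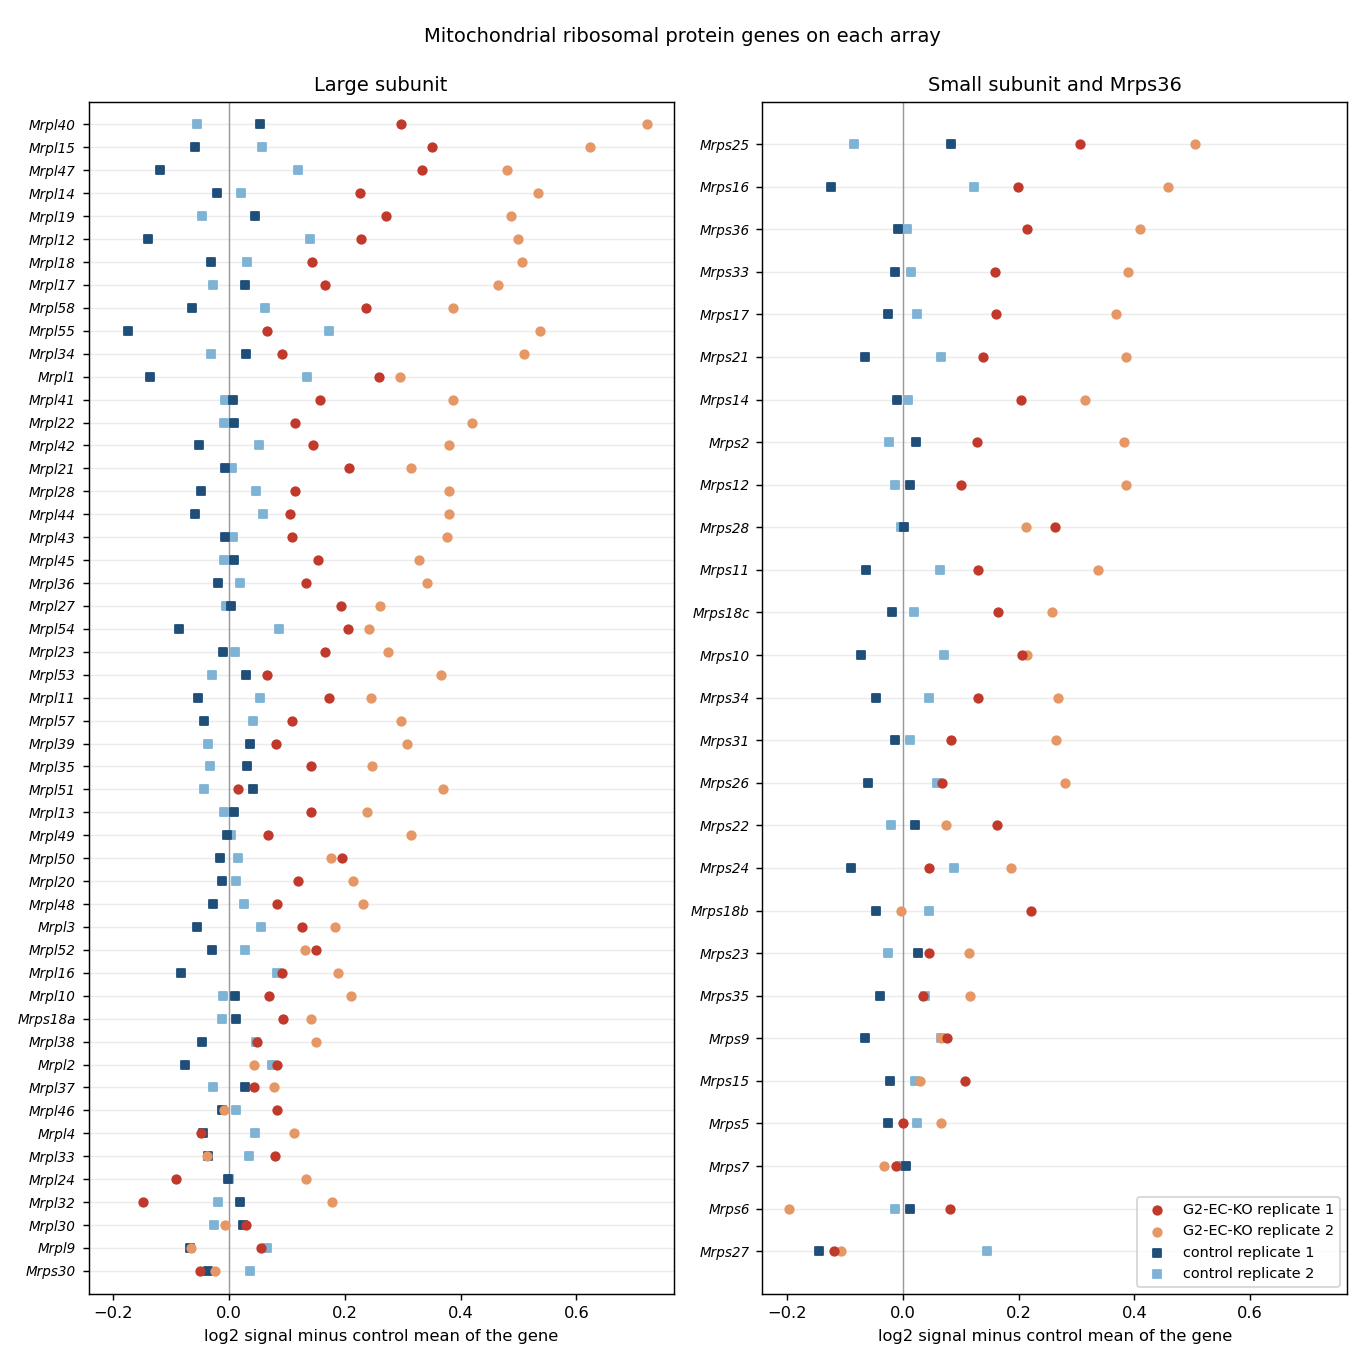
Log2 signal of each mitochondrial ribosomal protein gene on each array, as the difference from the control mean of that gene, with G2-EC-KO arrays as circles and control arrays as squares. Genes run down each panel by log2 change. Both circles lie to the right of both squares for 60 of the 78 genes, and the median is 0.12 on G2-EC-KO replicate 1 and 0.27 on replicate 2.

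Tested named genes were put into 4 bands of equal size by mean signal. None of the 78 genes fell in the dimmest band. The 14, 37 and 27 genes in the bands above it, dim to bright, had medians of 0.25, 0.19 and 0.22, against 0.05, 0.04 and 0.04 for all named genes of the same bands. Both G2-EC-KO arrays lay above both controls for 11, 29 and 20 of them. Among all named genes of the same bands, that share was 30.0147%, 32.6285% and 33.0006%.

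**Figure D2:**
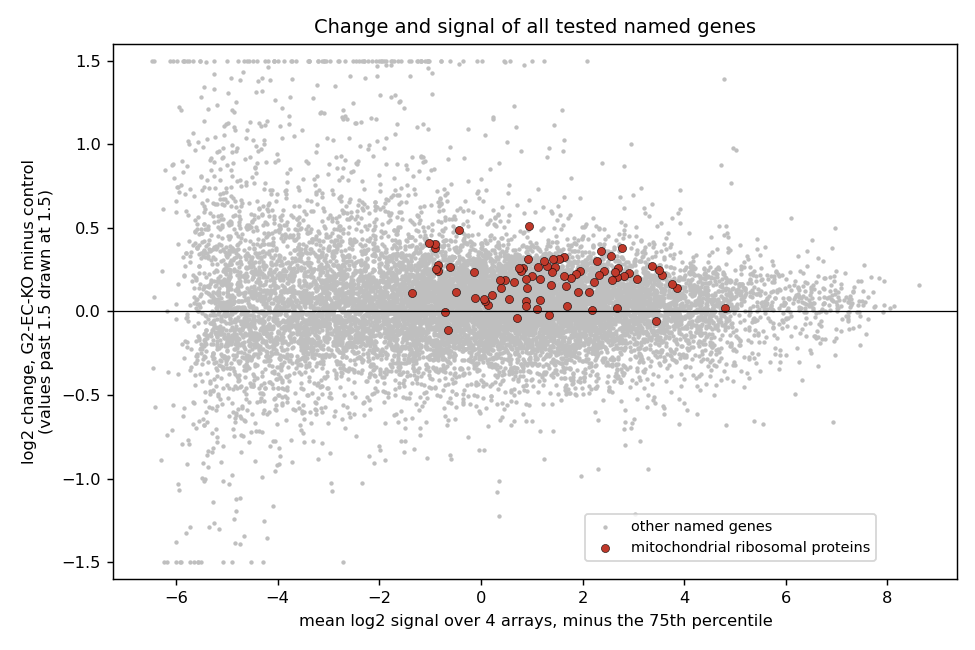
Log2 change (G2-EC-KO minus control, vertical axis) against the mean log2 signal over the 4 arrays (horizontal axis) for 13622 tested named genes, each a point. The mitochondrial ribosomal protein genes, in red, lie between -0.11 and 0.51, with 73 of 78 above 0.

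In the large subunit, 49 of 51 genes had a log2 change above 0, or 96.1%, against 58.1% of named genes, with a median of 0.21. Both G2-EC-KO arrays lay above both controls for 40, or 78.4%, against 30.4% of named genes. Classes follow the unified naming of ribosomal proteins, which gives some proteins a bacterial counterpart and others a mitochondrial name of their own. In the large subunit 30 genes have such a counterpart (median 0.22) and 21 have a mitochondrial name (median 0.19), Mrps18a among them. In the small subunit, 23 of 26 lay above 0, or 88.5%, with a median of 0.19. Of its genes, 19, or 73.1%, had both G2-EC-KO arrays above both controls. Its 16 genes with a bacterial counterpart had a median of 0.22 and its 10 with a mitochondrial name, Mrps18b among them, one of 0.15. The differences between subunits and between classes were not tested. They are smaller than the difference between the G2-EC-KO arrays, whose medians were 0.11 and 0.30 for the large and 0.13 and 0.24 for the small subunit on replicates 1 and 2.

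The largest difference was at Mrpl40, a protein of the central protuberance of the large subunit. It read 0.996 and 1.42 in G2-EC-KO, against 0.75 and 0.65 in control, a log2 change of 0.51 (SE 0.18; adjusted p = 0.512 by limma). The groups did not overlap, and replicate 2 of G2-EC-KO was the highest array. Its 2 other probes gave log2 changes of 0.46 and 0.47. All 8 genes of the protuberance lay above 0, with a median of 0.26. For 6, or 75%, both G2-EC-KO arrays lay above both controls, against 76.9% of the 78 genes and 30.4% of named genes. Mrpl46 and Mrpl55 overlapped.

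Mrpl15, a core protein of the large subunit, read -0.32 and -0.05 in G2-EC-KO, against -0.73 and -0.62 in control. By the probes used, this was the smallest p among the 78 genes (adjusted p = 0.467 by limma), at a log2 change of 0.49 with an SE of 0.14. The second probe of Mrps25, which read lower in G2-EC-KO, had a smaller p (adjusted p = 0.416 by limma). Both arrays of G2-EC-KO lay clear of both control arrays. Mrpl47, a protein near the exit of the peptide tunnel, read -0.89 and -0.74 in G2-EC-KO, against -1.34 and -1.10 in control, a log2 change of 0.41 (SE 0.14; adjusted p = 0.507 by limma). Of the 6 genes of proteins around that exit, all lay above 0, with a median of 0.25. For 5, or 83.3%, both G2-EC-KO arrays lay above both controls, against 76.9% of the 78 genes and 30.4% of named genes. The exception was Mrpl24, which read 2.57 and 2.79 in G2-EC-KO, against 2.66 and 2.66 in control.

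Mrpl14, at the face where the subunits meet, read 2.82 and 3.13 in G2-EC-KO, against 2.58 and 2.62 in control (log2 change 0.38, SE 0.15). Mrpl19, another core protein of the large subunit, read -0.82 and -0.61 in G2-EC-KO, against -1.05 and -1.14 in control (log2 change 0.38, SE 0.13). For both genes the control arrays lay close together, and replicate 2 of G2-EC-KO was the highest. Mrpl12, of the stalk that binds translation factors, read 2.40 and 2.67 in G2-EC-KO, against 2.04 and 2.31 in control (log2 change 0.36, SE 0.17). Its control arrays differed by more than its lower G2-EC-KO array did from the higher control. All 3 stalk genes, Mrpl10, Mrpl11 and Mrpl12, had both G2-EC-KO arrays above both controls, with changes from 0.14 to 0.36. That share was 76.9% over the 78 genes and 30.4% over named genes.

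By the probe used, the small subunit genes with the largest log2 change were Mrps25 and Mrps16, and the probes of Mrps25 disagreed. Mrps25, found in mitochondrial ribosomes alone, read -0.81 and -0.61 in G2-EC-KO, against -1.03 and -1.20 in control, a log2 change of 0.41 (SE 0.13; adjusted p = 0.498 by limma). The second probe of Mrps25 went the other way, with -2.13 and -2.21 in G2-EC-KO, against -1.41 and -1.74 in control, a log2 change of -0.60 (SE 0.15; adjusted p = 0.416 by limma). No direction is therefore given for Mrps25. Mrps16, which has a bacterial relative, read 2.60 and 2.86 in G2-EC-KO, against 2.28 and 2.53 in control, a log2 change of 0.33 (SE 0.16; adjusted p = 0.548 by limma). Its lower G2-EC-KO array lay just above its higher control array.

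At the other end, 8 genes lay between -0.11 and 0.02. Mrps27, which contains repeats of the RNA-binding pentatricopeptide kind, read -0.72 and -0.71 in G2-EC-KO, against -0.74 and -0.45 in control, the lowest log2 change of the 78, at -0.11 (SE 0.14; adjusted p = 0.765 by limma). Control replicate 2 was the array that stood apart, and without it the log2 change was 0.03. Mrps6 read 3.55 and 3.27 in G2-EC-KO, against 3.48 and 3.46 in control, so that the G2-EC-KO arrays lay on either side of the controls. Mrps7, a protein of the head of the small subunit, read 1.33 and 1.31 in G2-EC-KO, against 1.35 and 1.34 in control. Although its groups did not overlap, the log2 change was -0.02 (SE 0.10), and its second probe gave 0.21.

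Mrps30, which despite its name sits in the large subunit, had a log2 change of -0.04 (SE 0.11), with 0.68 and 0.71 in G2-EC-KO and 0.70 and 0.77 in control. Mrpl32, whose maturation by a mitochondrial protease precedes assembly of the ribosome, read 0.95 and 1.28 in G2-EC-KO, against 1.12 and 1.08 in control, so that the G2-EC-KO arrays again bracketed the controls. Mrpl30 and Mrpl9 had log2 changes of 0.01 (SE 0.11) and -0.0048 (SE 0.12). The 95% confidence intervals of Mrpl30, Mrpl9 and Mrpl32 ran from -0.27 to 0.29, from -0.32 to 0.31 and from -0.38 to 0.41, and so include the median of 0.21. These genes are therefore not shown to differ from the rest.

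Mrps18a, Mrps18b and Mrps18c are a family related to 1 bacterial protein, whose direct counterpart by the unified naming is Mrps18c, and they occupy different places, the first in the large subunit and the others in the small subunit. Mrps18c read 1.70 and 1.79 in G2-EC-KO, against 1.52 and 1.56 in control, a log2 change of 0.21 (SE 0.11), and its second probe gave 0.32 (SE 0.11). Mrps18a read 1.95 and 2.0 in G2-EC-KO, against 1.87 and 1.84 in control, a log2 change of 0.12 (SE 0.11). Mrps18b read -1.20 and -1.42 in G2-EC-KO, against -1.46 and -1.37 in control, and its groups overlapped (log2 change 0.11, SE 0.13). None of the 3 passed the test, and limma's adjusted p was from 0.562 to 0.754.

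Mrps36, outside both subunits, read 0.99 and 1.18 in G2-EC-KO, against 0.76 and 0.78 in control, a log2 change of 0.31 (SE 0.12). The other genes whose groups overlapped were Mrpl2, Mrpl4, Mrpl33, Mrpl51, Mrps5, Mrps24 and Mrps35.

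Probes of the same gene gave a second view of the same RNA. For 28 genes more than 1 probe was tested, and the median range between probes of a gene was 0.08 on the log2 scale. Of the 37 other probes of these genes, 32 had a log2 change above 0. Signs differed between probes in 6 genes, Mrpl17, Mrpl41, Mrps5, Mrps6, Mrps7 and Mrps25. The widest range was at Mrpl41, singled out after its values were seen, where the probe used gave 0.27 (SE 0.13) and a dim probe -0.84 (SE 0.54). That dim probe read -3.37 on control replicate 2 and between -5.11 and -4.91 on the other arrays. RefSeq lists pseudogenes of Mrpl23, Mrpl27, Mrpl48 and Mrps36, and binding of their transcripts to these probes was not tested.

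**Figure D3:**
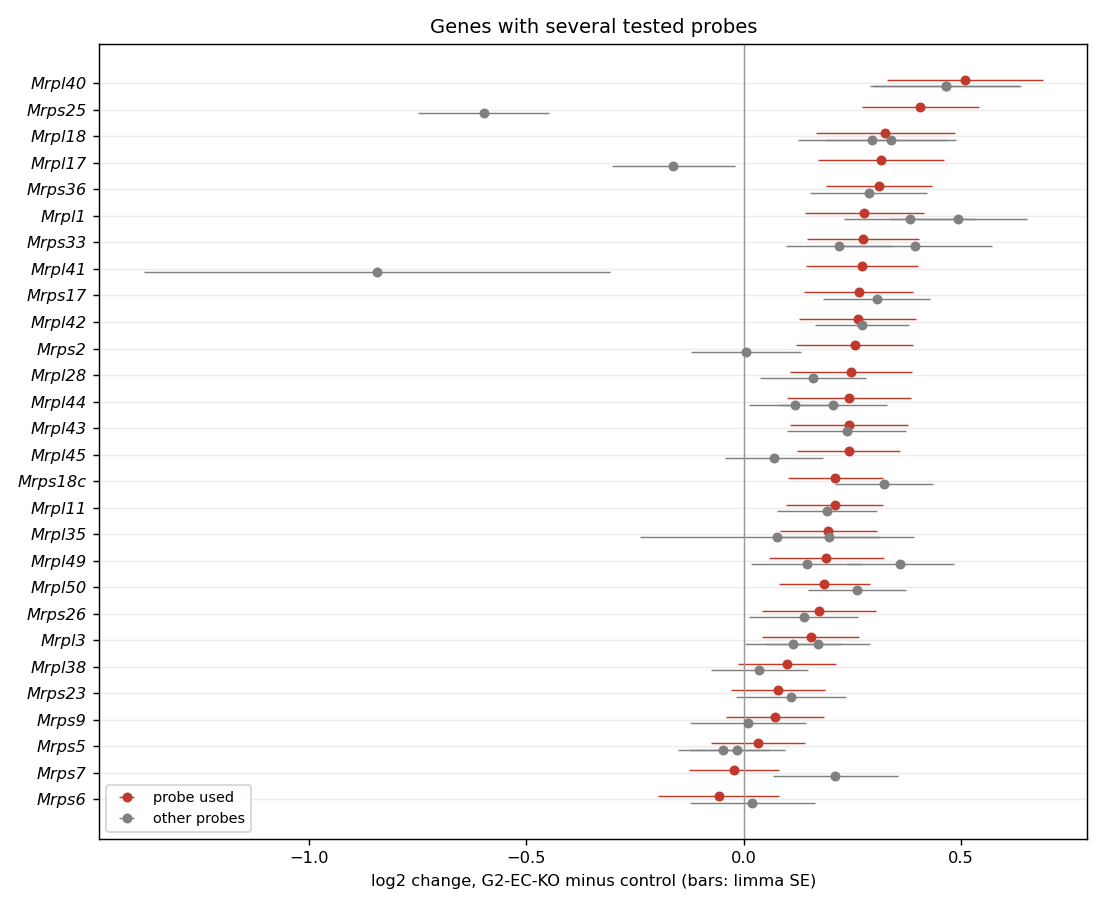
Log2 change (G2-EC-KO minus control, horizontal axis, bars show the limma SE) of every tested probe of the 28 genes with more than 1, with the probe used in red and the others in grey. For most genes the points lie together, with a median range of 0.08, and Mrps25 and Mrpl41 have a probe far on the other side of 0.

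The rest of mitochondrial translation was followed with lists of genes that were added after the data were seen. None of the lists had a gene past the adjusted threshold by limma. Of 5 subunits of the same ribosome with other symbols, all had a log2 change above 0, with a median of 0.16. The values were 0.29 (SE 0.12) for Chchd1 of the small subunit and 0.20 (SE 0.12) for Gadd45gip1 of the large. Among 14 translation factors 9 lay above 0 and the median was 0.07. Tufm, the mitochondrial elongation factor that delivers transfer RNAs, had 0.28 (SE 0.12) and the release factor gene Mtrf1 0.26 (SE 0.12). Of 17 mitochondrial tRNA synthetases 9 lay above 0, with a median of 0.04. Yars2 had 0.22 (SE 0.12), and Lars2 had -0.66 (SE 0.26), with 6.72 and 6.48 in G2-EC-KO, against 7.61 and 6.92 in control.

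For ribosome assembly, 17 of 19 listed genes were measured, 10 lay above 0 and the median was 0.08. Tfb1m, which methylates the small ribosomal RNA, had the smallest p of all genes in the lists of mitochondrial translation. It read -1.25 and -0.98 in G2-EC-KO, against -1.63 and -1.69 in control, a log2 change of 0.54 (SE 0.14; adjusted p = 0.421 by limma). It was the 1 gene of the 17 at an unadjusted p under 0.05. At that threshold 6.12% of named genes read higher, so the count is near the background. Mterf4, which recruits an RNA methyltransferase to the ribosome, had 0.28 (SE 0.15). Of 15 genes of mitochondrial transcription, RNA handling and DNA copying 7 lay above 0, with a median of -0.02. They include the transcription factors Tfam, at 0.29 (SE 0.12), and Tfb2m, at 0.29 (SE 0.13), each with groups that did not overlap. In this list both G2-EC-KO arrays lay above both controls for 6 genes, or 40%, against 30.4% of named genes. For 2, or 13.3%, both lay below, against 16.7% of named genes. Of 9 regulators of mitochondrial biogenesis 3 lay above 0, with a median of -0.05. The coactivator genes Ppargc1a and Ppargc1b had log2 changes of -0.42 (SE 0.16; adjusted p = 0.517 by limma) and -0.43 (SE 0.19; adjusted p = 0.538 by limma), and in both, both G2-EC-KO arrays lay below both control arrays. That held for 3 of the 9 regulators, or 33.3%, against 16.7% of named genes. Both arrays lay above for 1, or 11.1%, against 30.4% of named genes.

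Marker lists of other cells and of the cell cycle are given beside these genes, and their part in the result was not tested. All 12 cardiomyocyte markers were well above background on every array, and 12 of 12 had a log2 change above 0. Their median relative to the control mean was 0.01 on G2-EC-KO replicate 1 and 0.54 on replicate 2, and their summed signal, in multiples of the 75th percentile, was 116 and 161 in G2-EC-KO, against 110 and 114 in control. Of 11 measured macrophage markers 11 lay above 0, with summed signals from 16.5 to 19.0 in G2-EC-KO and from 12.2 to 17.4 in control, and on the control arrays Ccr2 did not stand well above background. Their medians were 0.43 and 0.25 on G2-EC-KO replicates 1 and 2, against -0.27 and 0.27 on the controls. Of 10 fibroblast markers 9 lay above 0 (178 to 197 in G2-EC-KO, 153 to 183 in control), with medians of 0.18 and 0.31 in G2-EC-KO, against -0.12 and 0.12 in control. Of 8 markers of pericytes and smooth muscle 1 lay above 0 (233 to 326 in G2-EC-KO, 286 to 315 in control), with medians of 0.12 and -0.32 in G2-EC-KO, against -0.04 and 0.04 in control. Of 14 cell cycle genes 13 lay above 0, with a median log2 change of 1.26 and medians of 1.04 and 1.43 on G2-EC-KO replicates 1 and 2. In RNA from a whole isolate, a change in the number of cells of a type and a change in RNA per cell cannot be told apart.

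**Figure D4:**
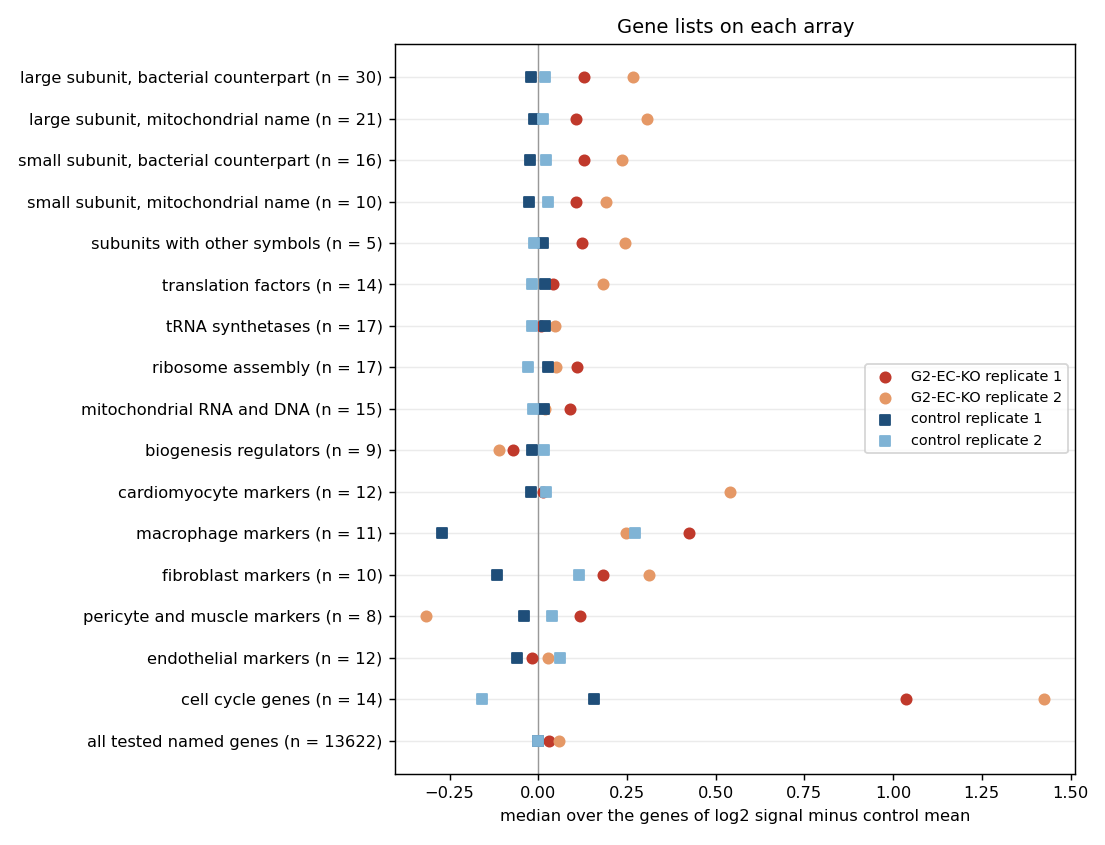
Median over the genes of each list of the log2 signal minus the control mean of the gene (horizontal axis), for each array, with G2-EC-KO as circles and control as squares. Ribosomal protein classes sit at 0.11 to 0.13 on G2-EC-KO replicate 1 and at 0.19 to 0.31 on replicate 2, while cardiomyocyte markers sit at 0.01 and 0.54.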

How the data were processed

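The authors deposited 1 scanner file per array, with a linear intensity for every spot. Per the file headers, spots were quantified with Agilent Feature Extraction 10.7.3.1, background-subtracted and spatially detrended within each array; 75th percentiles of 1288 and 1181 in G2-EC-KO and 1411 and 1438 in control show that arrays were not brought to one scale. The submitters' processing notes name version 10.5. A deposited value table equals median spot intensity minus median local background plus 16 in every row, so it is linear and not centred. The headers place all 4 arrays on 1 slide, G2-EC-KO at 3 and 4 and control at 1 and 2, which means that place and group cannot be told apart.

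Control spots and outlier spots (87 to 101 per array) were left out, log2 of the processed signal minus the 75th percentile of the array was taken and spots of a probe were averaged. Probes well above background on at least 2 arrays with a value on all 4 were tested (26882 of 41174). Symbols came from RefSeq (GRCm38.p6) by accession, for 26933 probes. The comparison used limma 3.58.1, run under R 4.3.3 (lmFit and eBayes, group alone, two-sided, 2 residual and 2.57 prior degrees of freedom), with Benjamini-Hochberg adjustment over all probes tested, and the fit was tested on simulated data. The number of arrays limits the precision.

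The genes and lists were chosen with earlier results of these data known. Genes named are the 8 with the largest and the 8 with the smallest log2 change, the Mrps18 paralogs, any gene with probes more than 0.3 from 0 on opposite sides, and, in the pathway lists, the 2 with the smallest p. The promoter windows of Mrps25 and Mrps27 follow from the smallest p in each direction, and those of Mrps16 and Mrpl32 were chosen after their motifs were seen. By that rule Mrpl15, which has no window in the table, and Mrps6, whose window holds none of the motifs, would also have been shown. Normexp used the median spot signal, as the files have no mean signal. Other alternatives were quantile normalization, median centring, no filter or a stricter filter on dim probes, the value table, an intensity trend, the replicate block, the mean over probes and leaving out each array.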

Additional observations from a re-analysis of the deposited data

How the results depend on the processing

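All 13 alternatives were run. The median log2 change of the 78 genes stayed between 0.19 and 0.23 under the processing alternatives and between 0.12 and 0.27 when 1 array was left out, and that of all probes tested stayed between -0.07 and 0.03. The medians of the large and small subunit moved between 0.11 and 0.30 and between 0.13 and 0.24 without 1 array. Limma called 0 of the 78 genes at an adjusted p of 0.05 in every alternative, where the lowest adjusted p was 0.162, without G2-EC-KO replicate 1. The count of the 78 genes at an unadjusted p under 0.05, 5 as reported, was 11 with normexp background correction, 1 without a filter on dim probes and 14 with an intensity trend in the variance. It was 3 with the replicate number as a block, and from 0 to 25 without 1 array, with 25 without G2-EC-KO replicate 1 and 0 without each of the others. Over all probes tested, the count at that threshold was 2586 as reported, 2770 with normexp and 2608 of 41153 without a filter on dim probes. It was 2812 with an intensity trend and 2696 with the replicate block. Without G2-EC-KO replicate 1 the count over all probes rose as well, and without each of the other arrays it fell. Whether the count of the 78 genes moved by more than that of all probes was not tested, and neither was the cause. Groups did not overlap for 66 to 71 genes without 1 array, where fewer arrays have to be apart. The share over all named genes with 3 arrays is not given, so these counts are not read as a result. With the replicate block, Mrpl12 came under an unadjusted p of 0.05 by limma, while Mrpl19, Mrpl40 and Mrps25 rose above it. The 1 adjusted call over all probes was lost under the block. The deviations of the arrays with number 1 from their group means correlated at 0.04 over probes, and the labels do not say that numbers pair samples.

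Of the 78 genes, 62 had a log2 change above 0 under every setting and 1, Mrps30, below 0, while 15 changed sign. Among genes named, Mrpl24 had -0.0096 with normexp, -0.00012 with quantile normalization and -0.0027 with the deposited value table, and from -0.091 to 0.13 without 1 array. Mrpl9 had 0.0097 with normexp, 0.012 with quantile normalization, 0.015 with median centring and 0.0042 with the deposited value table, and from -0.071 to 0.062 without 1 array. Without 1 array the ranges were -0.014 to 0.036 for Mrpl30, -0.15 to 0.18 for Mrpl32, -0.0022 to 0.22 for Mrps18b, -0.26 to 0.032 for Mrps27 and -0.196 to 0.082 for Mrps6. For the 8 genes with the largest log2 change they stayed above 0, at 0.30 to 0.72 for Mrpl40, 0.35 to 0.62 for Mrpl15, 0.29 to 0.53 for Mrpl47, 0.31 to 0.51 for the probe used of Mrps25, 0.23 to 0.53 for Mrpl14, 0.27 to 0.49 for Mrpl19, 0.22 to 0.50 for Mrpl12 and 0.20 to 0.46 for Mrps16. With the mean over all tested probes of a gene, Mrps25 had -0.10 and Mrps7 had 0.095. Of the pathway lists, added after the data were seen, the list of mitochondrial transcription, RNA and DNA, at -0.02 as reported, had a median from 0.018 to 0.09 without 1 array. Leaving out 1 array moved translation factors between 0.04 and 0.18, the regulators of biogenesis between -0.11 and -0.035 and the subunits with other symbols between 0.12 and 0.25. With the mean over all tested probes of a gene, the subunits with other symbols had 0.062, against 0.16 as reported, and the regulators -0.13, against -0.05. The regulators had from -0.034 to -0.026 with normexp, median centring or the value table.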

Other observations

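Other nuclear genes of protein synthesis and of mitochondria are given side by side, with no test of the differences between them. Of 78 measured cytosolic ribosomal protein genes 71 had a log2 change above 0, with a median of 0.08, and both G2-EC-KO arrays lay above both controls for 44, or 56.4%. Of 81 tested genes of the respiratory chain and ATP synthase 71 lay above 0, with a median of 0.17, and 51, or 63.0%, had both G2-EC-KO arrays above both controls. For the mitochondrial ribosomal protein genes the median was 0.21 and the share 76.9%, against a share of 30.4% over all named genes. Among the 78 genes, G2-EC-KO replicate 2 lay above replicate 1 for 64, among the cytosolic ones for 47 of 78 and among those of the respiratory chain for 65 of 81.

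Within the mitochondrial ribosomal protein genes, the promoter motifs were set beside the log2 change as a description. The median log2 change was 0.22 for the 25 genes with an ETS core and 0.19 for the 44 without, 0.12 for the 8 with an NRF1 core and 0.21 for the 61 without, and 0.14 for the 13 with a YY1 core and 0.21 for the 56 without. For the 11 with a GATA core it was 0.24, against 0.19 for the 58 without. It was 0.21 for the 34 with a GC box and for the 35 without, and 0.13 for the 4 with a TATA box, against 0.21 for the 65 without. These splits share genes, and none was tested.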
